A study of Mus musculus with 8 samples.

Results

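Ccl2, Ccl7, Igfbp4 and Igfbp7 encode secreted proteins that are often counted among the factors released by senescent cells, and they were taken by gene symbol from a table of H3K27me3 coverage, 4 genes of 273. All 4 stood on the list of 220 genes headed UP in Psat1cKO, and the other 53 genes stood under DOWN. The sources used here do not say how the lists were made, so membership is no evidence of any direction of the mark. H3K27me3, trimethylation of lysine 27 on histone H3, was mapped by CUT&RUN, in which an antibody brings a nuclease to chromatin and the released DNA is sequenced. Of the 8 samples of the series, 4 were made with the H3K27me3 antibody, 2 of each genotype; the 4 made with IgG were not analysed here. Primary myoblasts of mouse hindlimb muscle were grown in Ham's F10 with 10% horse serum, 1% penicillin/streptomycin and 2.5 ng/mL bFGF. Psat1cKO cells had the genotype Pax7 CRE+/-; Psat1fl/fl, and control cells were Pax7+/+; Psat1fl/fl, so both carried the floxed Psat1 alleles and the Cre stood at Pax7, the locus of a muscle stem cell factor. The labels name no age or number of animals, and they leave unsaid whether the replicates are separate animals or cultures; a p-value here speaks of the spread between libraries, part of which may be technical. Psat1, an enzyme of serine synthesis, was not in the table, so the deletion could not be checked, and of 9 myoblast markers 3 were in it (Pax7, Myf5 and Myf6), whose histone mark does not measure their expression.

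H3K27me3 is placed by Polycomb repressive complex 2, often in broad domains at CpG-rich promoters of genes that a cell keeps silent. Ccl2 and Ccl7 are chemokines that draw monocytes through the receptor Ccr2, and in injured muscle monocytes and macrophages help to clear debris before regeneration. Igfbp4 binds insulin-like growth factors and holds them from their receptor until proteases cleave it, and Igfbp7 is a related secreted protein that binds these growth factors weakly. Inflammatory chemokines are known for rapid induction, and the binding proteins for control of growth factor supply in tissue.

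Each gene was given as a profile of 61 points over the gene body, points 21 to 81, and 20 points in the flank on each side, an order inferred from the values. Most values above 0.01 (90.9 to 92.4% per library) were whole multiples of a smallest step, 0.106 and 0.112 in the Psat1cKO libraries and 0.0907 and 0.115 in the control libraries. A step is read here as the coverage given by a single fragment, and a level is the mean signal over all points of the profile, which does not grow with gene length. The median gene of the table had a level of 0.0748 in Psat1cKO replicate 1 and 0.0542 in Psat1cKO replicate 2, against 0.0633 in control replicate 1 and 0.0637 in control replicate 2.

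Igfbp4 had the strongest H3K27me3 signal of the 4 genes and Igfbp7 an intermediate one, whereas Ccl2 was near 0 in all 4 libraries and Ccl7 in both Psat1cKO libraries. Near 0 is taken as coverage at no more than 25 points of the profile, which also held for Igfbp7 in both replicate 2 libraries. It held for 76 and 124 of all 273 genes in the Psat1cKO libraries and for 87 and 111 in the control libraries, so such thin coverage is common in the table. A point of the gene body stands for about 964 bases in Igfbp7, but 30.8 in Ccl2 and 29.7 in Ccl7. Numbers of covered points are therefore not directly comparable between genes of unlike length. The Igfbp pair averaged 0.0996 and 0.158 in Psat1cKO replicates 1 and 2, against 0.111 and 0.115 in control replicates 1 and 2. The Ccl pair averaged 0.0152 and 0.00554 in the Psat1cKO replicates, against 0.0269 and 0.0337 in the control replicates. The ratio of the Igfbp pair to the Ccl pair was therefore 6.55 and 28.4 in the Psat1cKO libraries, against 4.13 and 3.40 in the control libraries. In Psat1cKO replicate 2 the whole profile summed to 2 steps for Ccl2 and 8 for Ccl7, and Igfbp4 was 10.4 times Igfbp7. The ratio of 28.4 thus rests on a few fragments of the Ccl genes and mostly on Igfbp4. Each Igfbp gene was above each Ccl gene in both Psat1cKO libraries and in control replicate 1. Control replicate 2 was the exception, where Ccl7 lay above Igfbp7. With 2 libraries per genotype no exact permutation test can give a two-sided p below 0.333, so the ratios are given without a test.

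**Figure D1:**
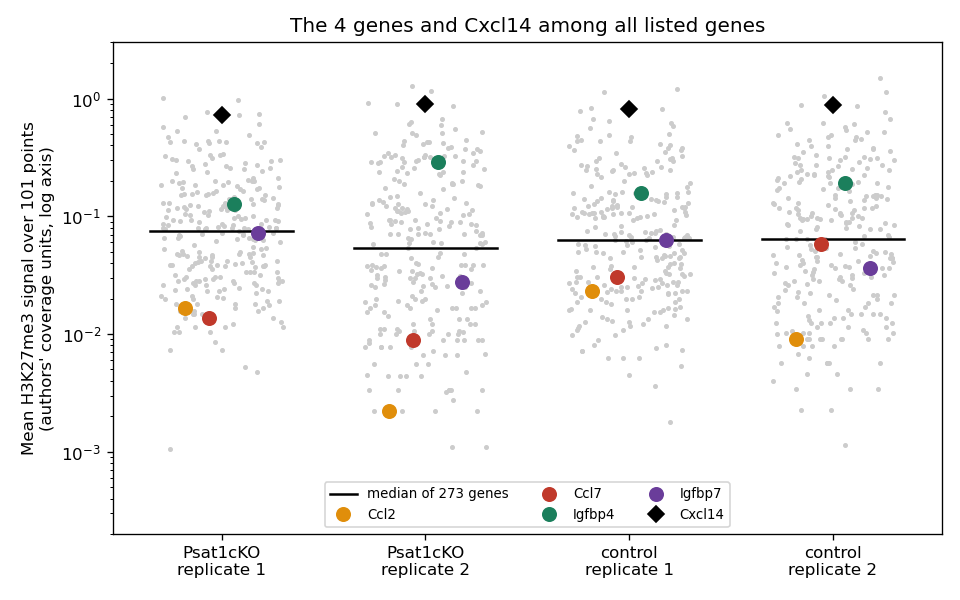
Mean H3K27me3 signal over all profile points (authors' coverage units, log axis) of every listed gene with signal in each of the 4 libraries, Psat1cKO left and control right; grey points are single genes, black lines the median of 273 genes, and the 2 to 5 genes at 0 in a library are not drawn. Igfbp4 lies above the median in all 4 libraries, Ccl2 far below it, and Cxcl14 near the top.

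Igfbp4 had the strongest mark of the 4 genes (transcript NM_010517; RefSeq gene on chromosome 11, 99040005 to 99052655, plus strand, 12651 bases). Its level was 0.128 in Psat1cKO replicate 1 and 0.288 in Psat1cKO replicate 2, against 0.159 in control replicate 1 and 0.193 in control replicate 2. The Psat1cKO libraries lay on either side of the control libraries, so the genotypes overlapped. It exceeded 187 and 229 of the 273 genes in the Psat1cKO libraries and 211 and 207 in the control libraries. Coverage reached 52 and 71 points of the profile in the Psat1cKO libraries and 66 and 65 in the control libraries, leaving 30 to 49 points without any, and 34 points were covered in all 4 libraries. The highest point stood at 0.740 and 1.80 in the Psat1cKO libraries, points 29 and 30, and at 0.907 and 1.03 in the control libraries, points 28 and 38. All of these lie within the first part of the gene body.

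Igfbp7 (transcript NM_001159518; RefSeq gene on chromosome 5, 77349240 to 77408045, minus strand, 58806 bases) had an intermediate level, at or below the median gene. It stood at 0.0715 and 0.0277 in Psat1cKO replicates 1 and 2, against 0.0633 and 0.0364 in control replicates 1 and 2. Both replicate 1 libraries were high and both replicate 2 libraries low, and the Psat1cKO values enclosed the control values. Its 21 points around the start, points 11 to 31, held 57.3 and 44% of its signal in the Psat1cKO libraries and 63.1 and 59.3% in the control libraries. Those points are 20.8% of the profile, and the median share there, over the 218 genes that passed a filter on low signal, was 30.7 and 30.6% in the Psat1cKO libraries and 31.9 and 30.9% in the control libraries. For Igfbp4 the share was 52.7 and 50.7% in the Psat1cKO libraries, against 44.6 and 36.5% in the control libraries, so both Igfbp genes lay above the median share in every library. This was not particular to them. Htra1 had 73.4 and 76.6% in the Psat1cKO libraries and 64.9 and 67.4% in the control libraries, whereas Il11 had 1.4 to 2.3%. From few fragments, Ccl7 had 23.1 and 0% in the Psat1cKO libraries, against 35.3 and 54.8% in the control libraries. Ccl2 had 56.2 and 0% in the Psat1cKO libraries, against 7.7 and 0% in the control libraries. Taken over the RefSeq gene, a profile point of the body stands for about 964 bases in Igfbp7, 207 in Igfbp4, 30.8 in Ccl2 and 29.7 in Ccl7, so coverage of the long Igfbp7 is read more coarsely. The highest point of Igfbp7 was at points 22 and 20 in the Psat1cKO libraries and at points 22 and 25 in the control libraries.

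The 300 bases around a start site, 250 before it and 50 after, are shown because the points around the start held more of the Igfbp signal than of that of the median gene. They are from the RefSeq table of GRCm38.p6, which is the assembly of the submitters' build mm10, with every CG dinucleotide in capitals. The start site of the Igfbp4 window, base 99041244, lies 1239 bases inside the RefSeq gene span given above, whereas those of Igfbp7 and Igfbp6 are the first transcribed base of theirs; which start the profiles used is not stated. Ccl2 and Ccl7 had no window in that table. Igfbp6, another insulin-like growth factor binding protein on the UP list, is set beside the members as a weakly marked relative.
Igfbp4 (chr11:99040994-99041293, plus strand): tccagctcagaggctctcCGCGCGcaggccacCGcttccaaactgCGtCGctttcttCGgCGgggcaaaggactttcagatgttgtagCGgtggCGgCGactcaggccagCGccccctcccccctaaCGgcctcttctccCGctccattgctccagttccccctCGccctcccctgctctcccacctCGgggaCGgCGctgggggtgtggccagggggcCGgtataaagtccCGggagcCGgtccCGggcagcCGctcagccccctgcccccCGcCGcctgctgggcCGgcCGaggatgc
Igfbp7 (chr5:77407996-77408295, minus strand): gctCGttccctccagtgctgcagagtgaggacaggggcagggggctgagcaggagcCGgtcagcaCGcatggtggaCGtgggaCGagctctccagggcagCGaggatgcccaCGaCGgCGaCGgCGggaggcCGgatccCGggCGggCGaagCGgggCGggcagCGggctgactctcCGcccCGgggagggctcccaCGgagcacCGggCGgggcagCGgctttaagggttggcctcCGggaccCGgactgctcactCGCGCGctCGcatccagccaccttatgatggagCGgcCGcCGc
Igfbp6 (chr15:102143936-102144235, plus strand): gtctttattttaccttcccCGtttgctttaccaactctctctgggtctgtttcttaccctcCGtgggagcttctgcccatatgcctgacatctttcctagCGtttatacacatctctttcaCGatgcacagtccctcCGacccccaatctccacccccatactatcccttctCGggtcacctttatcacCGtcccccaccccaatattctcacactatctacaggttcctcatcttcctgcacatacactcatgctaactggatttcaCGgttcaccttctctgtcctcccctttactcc

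The window of Igfbp4 holds 27 CG dinucleotides and that of Igfbp7 holds 33, against 8 in that of Igfbp6. CG reads the same on both strands. At least 27 were found in 15.5% of all 32851 windows and in 14.4% of the 257 windows of listed genes, and at least 33 in 8.56% of all windows and 7.0% of those of listed genes. At least 8 were found in 48.7% of all windows and 64.6% of those of listed genes. Igfbp6 had levels of 0.0285 and 0.0133 in the Psat1cKO libraries, against 0.0274 and 0.00455 in the control libraries, below both Igfbp members in every library. The order of CG number was not the order of level, since Igfbp7 lay below Igfbp4 in every library. Cxcl14, whose window holds 22, lay above both in every library. For each of the 192 listed genes with a window, the window with the most CG was counted where there were several. Genes with more than 13 CG, the median of these counts, had a median level of 0.0924 and 0.0655 in the Psat1cKO libraries. In the control libraries it was 0.0708 and 0.0853. The other genes had lower medians, 0.0523 and 0.0388 in the Psat1cKO libraries and 0.0494 and 0.0455 in the control libraries. That is a description across genes, which share libraries and are not independent.

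Ccl2 (transcript NM_011333; RefSeq gene on chromosome 11, 82035577 to 82037452, plus strand, 1876 bases) had the lowest level of the 4 genes in 3 of the 4 libraries. It stood at 0.0168 in Psat1cKO replicate 1 and 0.00222 in Psat1cKO replicate 2, against 0.0233 in control replicate 1 and 0.00911 in control replicate 2. Both replicate 1 libraries were the higher ones, and the genotypes overlapped. Coverage reached 14 and 2 points in the Psat1cKO libraries and 24 and 7 in the control libraries, with 77 to 99 points uncovered. No point exceeded 2 steps in any library, and no point was covered in all 4. Both replicate 2 libraries, Psat1cKO and control, had 0 covered points in the gene body. The body held 1 covered stretch in Psat1cKO replicate 1 and 2 in control replicate 1. At this depth the signal of Ccl2 therefore rests on a handful of fragments, and with no IgG library analysed it cannot be told apart from background.

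Ccl7 lies 8259 bases beyond Ccl2 on the same strand (transcript NM_013654; RefSeq gene on chromosome 11, 82045712 to 82047525, 1814 bases). Its level was 0.0136 in Psat1cKO replicate 1 and 0.00887 in Psat1cKO replicate 2, against 0.0305 in control replicate 1 and 0.0583 in control replicate 2. Both Psat1cKO libraries lay below both control libraries. Of all 273 genes, 26 were separated in this direction, or 9.52%, and 16 in the opposite one, or 5.86%. Ccl7 exceeded 17 and 43 of the 273 genes in the Psat1cKO libraries, against 88 and 133 in the control libraries. In the Psat1cKO libraries it was covered at 12 and 8 points, against 32 and 31 points in the control libraries, and no point was covered in all 4.

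The separation of Ccl7 rests on few fragments. Its body held 1 covered stretch in each Psat1cKO library, against 4 in control replicate 1 and 2 in control replicate 2. Points 22 to 34, just past the start, were chosen after the values were seen. There the mean signal was 0 in both Psat1cKO libraries, against 0.0698 in control replicate 1 and 0.276 in control replicate 2. They held 29.4% of the signal of control replicate 1 and 61% of that of control replicate 2. Over all other points the mean was 0.0156 and 0.0102 in the Psat1cKO libraries, against 0.0247 and 0.0261 in the control libraries. The order of the libraries was the same outside that stretch, at levels of a few fragments. Those points belong to the same gene and libraries, so they give no independent support for the separation.

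**Figure D2:**
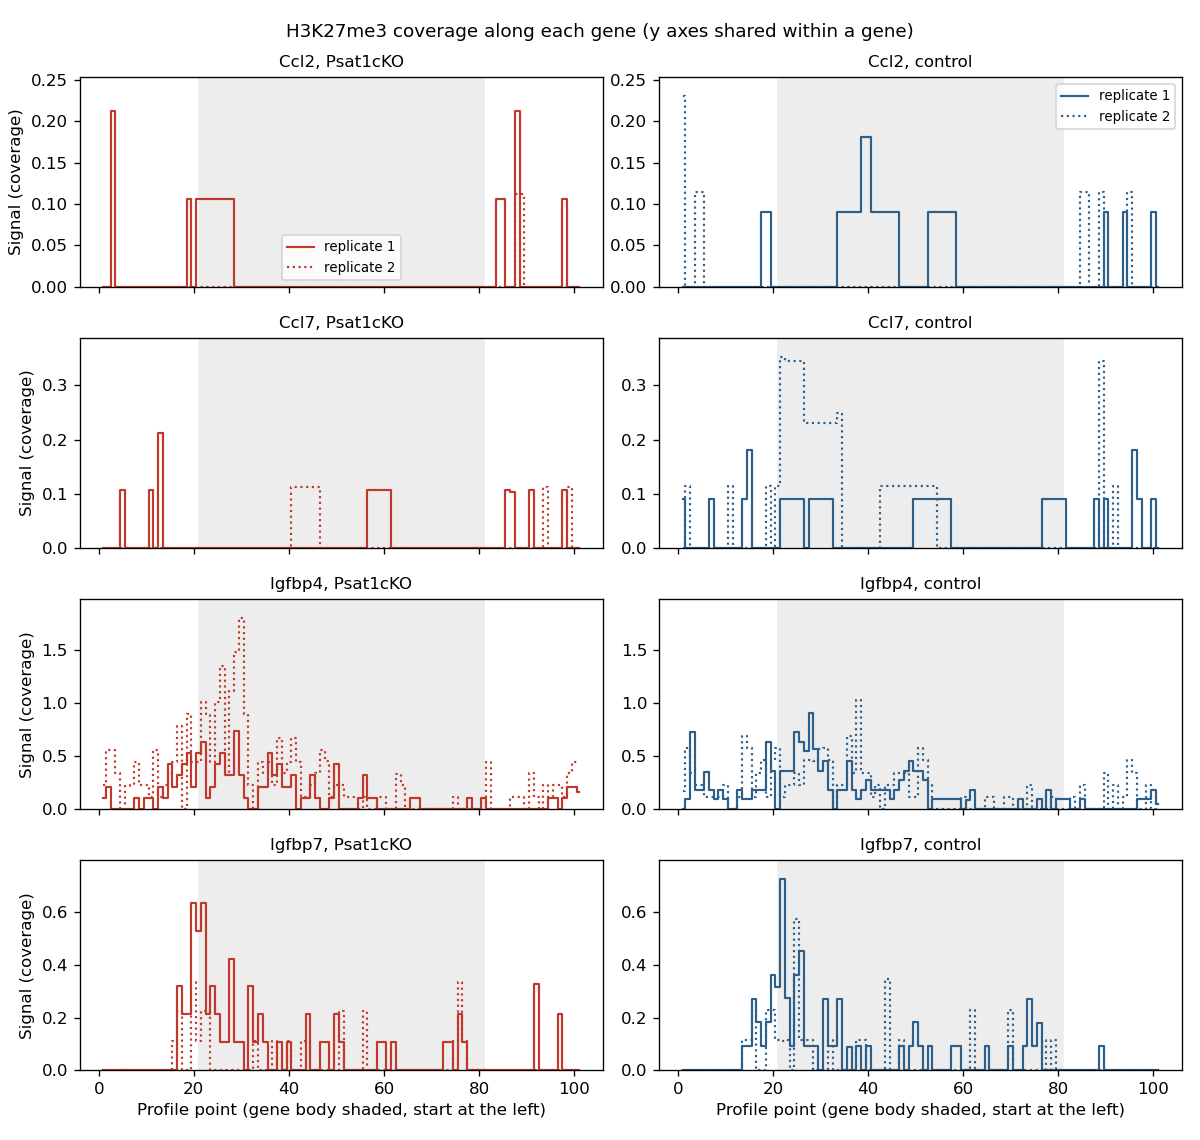
H3K27me3 coverage (authors' units) along each gene, Psat1cKO left and control right, replicate 1 as solid and replicate 2 as dotted lines; the gene body, points 21 to 81, is shaded and y axes are shared within a gene. Igfbp4 has its highest coverage at points 28 to 38 and Igfbp7 at points 20 to 25, whereas Ccl2 and Ccl7 show isolated blocks of 1 or 2 steps, except for Ccl7 in control replicate 2.

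The comparison of Psat1cKO with control asked whether the genotypes differ in the level of the mark on these genes. Only Psat1cKO cells carried the Cre at Pax7, so loss of Psat1 and the Cre cannot be told apart. No gene of the whole table passed the test (limma on log2 of the summed signal plus 1, Benjamini-Hochberg over 218 genes; 0% called, smallest adjusted p = 0.999), and 1 gene, or 0.459%, had an unadjusted p below 0.05, none of the 4 among them in this fit. The fit had no replicate term, so deviations shared by libraries of the same replicate number (Pearson's r 0.758 across 218 genes) stayed in its error. That can widen its intervals and raise its p-values. With the replicate as a block, 0 genes were called as well. Simulated log2 changes of 1 were called in 6.5% of the genes given that change, and those of 2 in 34.5%. In each simulation 40 of 218 genes were altered. The test can thus miss large differences. The simulated noise was independent between libraries and its size was shuffled over genes. Deviations shared within a replicate number and the link of spread to level were therefore absent, and the rates may differ in the real data. Of the 4 genes, 3 passed the filter on low signal and Ccl2 did not.

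**Figure D3:**
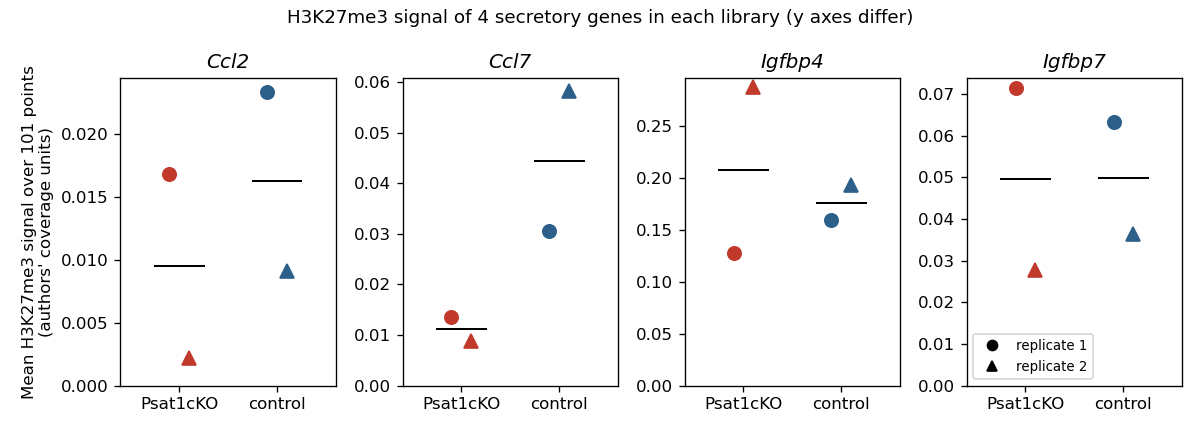
Mean H3K27me3 signal over all profile points (authors' coverage units, y axes differ between genes) in each library, Psat1cKO left and control right; circles are replicate 1, triangles replicate 2 and lines the mean of 2 libraries. The genotypes are separated for Ccl7 and overlap for Ccl2, Igfbp4 and Igfbp7.

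For Ccl7 the level was 0.0112 ± 0.00336 in Psat1cKO and 0.0444 ± 0.0196 in control libraries (SD, n = 2 each). The log2 change was -1.32 ± 0.66 (SE; 95% interval -2.80 to 0.15; limma adjusted p = 0.999, unadjusted p = 0.0738), and it was -0.37 with a pseudocount of 10. Under 5 of 9 other settings with all 4 libraries its unadjusted p was below 0.05 (0.0205 to 0.0841 over the 9), and the adjusted p was 0.653 or more (limma). The share of all genes below 0.05 is given only for the fit described above, so these values have no background of their own. The Psat1cKO to control ratio was 0.446 in replicate 1 and 0.152 in replicate 2. Ccl7 passed the filter only through its control libraries, so its inclusion in the test already needed higher control values.

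For Ccl2 the level was 0.00951 ± 0.0103 in Psat1cKO and 0.0162 ± 0.0101 in control libraries (SD, n = 2 each), with Psat1cKO to control ratios of 0.720 and 0.244 in replicates 1 and 2. Fitted without the filter, its log2 change was -0.48 ± 0.52 (SE; 95% interval -1.74 to 0.78; limma adjusted p = 1). It was 0.36 over the points around the start and 0.087 without Psat1cKO replicate 2, the opposite direction. Both chemokine genes were thus lower in Psat1cKO cells within each replicate, as were 83 of all 273 genes, or 30.4%.

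For Igfbp4 the level was 0.208 ± 0.113 in Psat1cKO and 0.176 ± 0.0237 in control libraries (SD, n = 2 each). The log2 change was 0.13 ± 0.46 (SE; 95% interval -0.90 to 1.15; limma adjusted p = 0.999). The ratio was 0.801 in replicate 1 and 1.49 in replicate 2, opposite directions. For Igfbp7 the level was 0.0496 ± 0.0310 in Psat1cKO and 0.0498 ± 0.0190 in control libraries (SD, n = 2 each). The log2 change was -0.07 ± 0.57 (SE; 95% interval -1.35 to 1.21; limma adjusted p = 0.999), with ratios of 1.13 and 0.762 in replicates 1 and 2. For both Igfbp genes the difference between genotypes was smaller than the spread between replicates. Without Psat1cKO replicate 2 the log2 change was -0.43 for Igfbp4 and 0.48 for Igfbp7, and without control replicate 1 it was -0.0028 for Igfbp4 and 0.26 for Igfbp7, each time the opposite sign. The median over all 218 genes was -0.04, with 0.06 in replicate 1 and -0.15 in replicate 2.

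Among other secretory genes, 139 were listed with earlier results known, and 21 of them were in the table, including the 4 members. None of the 10 senescence effectors on that list, such as Cdkn1a and Cdkn2a, was in it. Of the 19 past the filter, 10 were higher and 9 lower in Psat1cKO cells, 0 passed limma, and the median log2 change was 0.02. Of all 218 genes tested, 92 were higher and 126 lower, with a median of -0.04. In both replicates 3 were lower (Ccl7, Inhba and Kitl) and 3 higher (Igfbp6, Mmp2 and Timp1), and 13, or 68.4%, went in opposite directions. Of all 218 genes, 72 were lower in both replicates, 50 higher, and 96, or 44%, went in opposite directions.

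Cxcl14, a chemokine of another family and the only other gene of the chemokine and receptor list in the table, was among its most strongly marked genes. Its level was 0.730 and 0.896 in the Psat1cKO libraries, against 0.810 and 0.879 in the control libraries, above 268 to 269 of the 273 genes in every library. It was covered at 96 to 100 points of the profile, and its promoter window holds 22 CG dinucleotides. Its log2 change was -0.06 ± 0.19 (SE; 95% interval -0.48 to 0.36; limma adjusted p = 0.999).

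Plat, the tissue plasminogen activator, had 0.0452 and 0.0166 in the Psat1cKO libraries, against 0.0232 and 0.0345 in the control libraries. It lay below the median gene in every library, and the genotypes overlapped.

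Il11, a cytokine of the interleukin-6 family, was well marked, with 0.284 and 0.231 in the Psat1cKO libraries, against 0.276 and 0.252 in the control libraries. Lif, of the same family, had 0.103 and 0.0400 in the Psat1cKO libraries, against 0.108 and 0.0387 in the control libraries, with the replicate 1 libraries high as in Igfbp7. Timp3, a metalloproteinase inhibitor, had 0.251 and 0.489 in the Psat1cKO libraries, against 0.275 and 0.304 in the control libraries, the same order of libraries as Igfbp4.

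Timp1, of the same inhibitor family, was low, with 0.0294 and 0.0366 in the Psat1cKO libraries, against 0.0273 and 0.0308 in the control libraries. Mmp2, a gelatinase, had 0.115 and 0.104 in the Psat1cKO libraries, against 0.0985 and 0.0953 in the control libraries. For Mmp2 both Psat1cKO libraries lay above both control libraries, as for 16 of all 273 genes, and for Timp1 the genotypes overlapped. Htra1, a secreted protease that cleaves matrix and binding proteins, had 0.179 and 0.128 in the Psat1cKO libraries, against 0.139 and 0.152 in the control libraries. The growth factors Fgf2 (0.0930 and 0.0393 in the Psat1cKO libraries, against 0.0811 and 0.0444 in the control libraries) and Fgf7 (0.128 and 0.0792 in the Psat1cKO libraries, against 0.106 and 0.152 in the control libraries) overlapped between the genotypes.

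**Figure D4:**
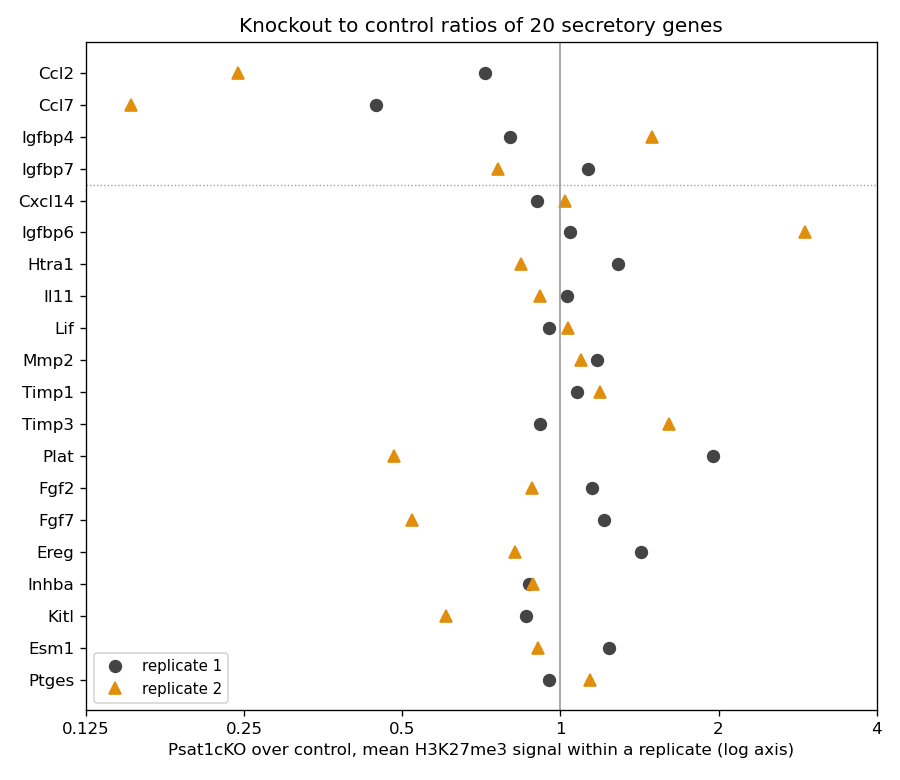
Psat1cKO over control, mean H3K27me3 signal within a replicate (log axis), for the 4 members, above the dotted line, and the other secretory genes that passed the filter on low signal; circles are replicate 1 and triangles replicate 2. Ccl2 and Ccl7 lie below 1 in both replicates, and the ratios of Igfbp4 and Igfbp7 fall on opposite sides of 1.

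The genes most like each member over the 4 libraries were found by the smallest summed difference in log2 of summed signal plus 1. For Ccl2 they were Ptpn22, a phosphatase of immune cells, and Erdr1 (summed differences 0.59 and 0.64). For Ccl7 they were Vasn and Dynap, at a far larger distance (1.80 and 1.82), and neither matches its control level closely. Vasn, for example, had 0.0147 and 0.00887 in the Psat1cKO libraries, against 0.0224 and 0.0157 in the control libraries. For Igfbp4 they were Scn4a, the sodium channel of skeletal muscle, and Mdfi, an inhibitor of myogenic factors (0.72 and 0.86). Scn4a, from the DOWN list, had 0.154 and 0.293 in the Psat1cKO libraries, against 0.142 and 0.238 in the control libraries. For Igfbp7 they were Emilin2, a matrix glycoprotein, and Ptges, a prostaglandin E synthase (0.56 and 0.66).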

How the data were processed

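The authors deposited signal values (coverage along a fixed profile of each gene) in 2 tables, each with a Psat1cKO and a control block. Per the submitters' processing notes, Trimmomatic 0.36, Bowtie, Picard 2.22.2 and the build mm10 were used; their order, the profile program, the scaling and the flank width are not stated in any source used here. As these are no read counts, count models were left out, and depth is seen only through the smallest step. The number that ends the name of a table was matched to the replicate number in the sample titles.

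Gene values for the test were sums over the profile; levels in the text are means over it. A point was covered above 0.5 of a step, and values within 0.02 of a step of a whole multiple were called whole. Among the 69 shortest genes, 25.8% of neighbouring values were equal at points 22 to 80, against 10.1% and 9.61% in the flanks, which placed the body. The 218 genes whose sum exceeded 2.35 (lower quartile of all sums) in at least 2 libraries entered limma 3.58.1 (R 4.3.3, variance trend, no replicate term) on log2(sum + 1), at an adjusted p of 0.05. Log2 changes on that scale understate changes of low genes. The fit was tested on simulated data (20 simulations, 40 of 218 genes altered), with 0.4 false calls per simulation. Python 3.11.15, numpy 2.4.6, pandas 2.3.3 and matplotlib 3.10.9 did the rest. Coordinates, counted from 1, are those of the RefSeq gene in GRCm38.p6, to which 268 genes matched by accession and 5 by symbol.

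The members and lists were chosen with earlier results of these data known. Named beside the members were up to 12 table genes of a secretory list, in list order, and the 2 genes most like each member, passing over predicted genes; Inhba and Kitl were named after their values were seen. A gene of that list is not reported here, though the counts include it. Alternatives were other pseudocounts, no filter, other scalings, the replicate block, each library left out, and parts of the profile.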

Additional observations from a re-analysis of the deposited data

How the results depend on the processing

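With all 4 libraries, Ccl7 stayed lower in Psat1cKO cells under each of 9 other settings (log2 change -1.85 to -0.37), Igfbp4 higher (0.014 to 0.44) and Igfbp7 lower (-0.24 to -0.0025), and no adjusted p was below 0.653. Ccl2, fitted without the filter, was lower under 7 of 8 settings and higher over the points around the start (0.36). Leaving out each library gave -1.05 to 0.087 for Ccl2, -1.70 to -0.94 for Ccl7, -0.43 to 0.68 for Igfbp4 and -0.63 to 0.48 for Igfbp7. With all 4 libraries, 0 genes were called higher and 0 lower under each of the 9 other settings. Values without a library also carry the difference between replicates. Over the points around the start the mean signal was 0.0227 in Psat1cKO and 0.00432 in control libraries for Ccl2. It was 0.00758 in Psat1cKO and 0.103 in control libraries for Ccl7, 0.512 in Psat1cKO and 0.340 in control libraries for Igfbp4, and 0.128 in Psat1cKO and 0.148 in control libraries for Igfbp7. Both Ccl2 means came from the replicate 1 libraries alone. The Psat1cKO values enclosed the control values for Igfbp4 (0.323 and 0.701 against 0.342 and 0.339) and for Igfbp7 (0.197 and 0.0587 against 0.192 and 0.104). For Ccl7 both Psat1cKO values (0.0152 and 0) lay below both control values (0.0518 and 0.154). There the Igfbp to Ccl ratio was 5.86 ± 4.21 in control libraries (SD, n = 2), a wide spread. In Psat1cKO libraries it had no value, since the Ccl pair had no signal in replicate 2. The causes were not tested.

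Libraries of the same replicate number deviated together from their genotype mean (Pearson's r 0.758 across 218 genes), but the labels give the samples only a number in common. With a replicate block the log2 changes were the same, and 0 genes were called. Ccl7 then had an unadjusted p of 0.0344 and an adjusted p of 0.653 (limma), and its 95% interval was -2.47 to -0.18. Its unadjusted p was also below 0.05 with quantile normalization (0.0241), over the points around the start (0.0205), over the gene body (0.0255) and with no filter (0.0437), where the limma adjusted p was 0.99 to 1. How many of all genes fell below 0.05 in these fits and with the block is not given here. With no count of reads and no IgG library analysed, levels of a few steps, as for Ccl2 and Ccl7, limit what can be read from these data.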
